A study of Mus musculus with 3 samples.

Results

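The transcription factor genes Bach1 and Nfe2l2 (which encodes NRF2), the NRF2 inhibitor gene Keap1 and 7 antioxidant genes, Gclm, Gclc, Slc7a11, Txnrd1, Srxn1, Nqo1 and Gsr, were followed across 3 cell populations of the mouse spleen. They were chosen by name, with earlier results of these data known. Every probe set whose platform annotation gives 1 of these symbols alone was used, which gave 22 of 45101 probe sets for 10 of the 18193 genes with a named probe set.

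RNA was measured on 3 Affymetrix arrays, 1 for each population, sorted from adult mice of the genotype Spic(igfp/+). In these mice a GFP reporter at 1 allele of Spic marks cells that express this transcription factor of red pulp macrophages, and all 3 groups carry it. The groups are Spic-negative monocytes and Spic-positive monocytes, both positive for CD11b and Ly6C and separated by GFP, and red pulp macrophages, high for F4/80 and for GFP. No treatment was applied, and the labels do not say how many animals stand behind each array. With 1 array per group there is no spread between samples and no test, so each difference below is a difference of log2 values between 2 arrays, counted when it reached 2-fold (a log2 difference of 1).

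BACH1 and NRF2 each pair with a small MAF protein and bind the same kind of DNA element, BACH1 as a repressor and NRF2 as an activator. Heme binds BACH1, which then leaves DNA and is degraded. KEAP1 delivers NRF2 to degradation until oxidants or electrophiles modify KEAP1, after which NRF2 accumulates. Red pulp macrophages engulf aged red blood cells and so take in large amounts of heme, which links both factors to this cell. These steps act on the proteins, and an array reads RNA.

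The arrays differed in ways that touch every comparison. Of 10 red pulp macrophage markers, 4, 7 and 10 lay above the floor (log2 5.02, the median over non-control probe sets) in Spic-negative monocytes, Spic-positive monocytes and macrophages, and of 8 monocyte markers 8, 8 and 7 did. Erythroid markers were high on the macrophage array, with 8 of 9 above the floor against 1 and 3 on the monocyte arrays and a log2 summed level of 13.54 against 7.53 and 7.77. B cell markers stood at summed levels of 9.18, 11.26 and 10.86, with 5, 9 and 8 of 9 above the floor. T and NK cell markers summed to 7.56, 7.52 and 9.85 (1, 1 and 5 of 5 above the floor), and neutrophil markers to 13.64, 13.85 and 14.34 (all 6 on each array). The X-inactivation RNA Xist measured 4.63, 4.70 and 11.95 and the Y-linked gene Eif2s3y 10.10, 9.56 and 3.31, so the sex of the mice was not matched between the monocyte arrays and the macrophage array. Gapdh control probe sets at the 3' end exceeded those at the 5' end by 0.48, 2.25 and 1.61, those of beta-actin by 0.74, 0.57 and 1.13, and the spiked hybridization controls had medians of 10.23, 12.41 and 10.16. The part of these differences in the results below was not tested.

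In the GRCm38.p6 annotation the regulators lie as protein-coding genes with Bach1 at chr16:87698954-87733346, Nfe2l2 at chr2:75675513-75704663 and Keap1 at chr9:21229730-21239332. The glutathione genes lie with Gclm at chr3:122245487-122267215, Gclc at chr9:77754535-77794489, Slc7a11 at chr3:50364936-50499087 and Gsr at chr8:33653238-33698162. The remaining genes lie with Txnrd1 at chr10:82833951-82897724, Srxn1 at chr2:152105524-152111376 and Nqo1 at chr8:107388225-107403205.

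NRF2 and BACH1 act through antioxidant response elements, so the promoters of the genes were searched for them. RefSeq promoter windows of 300 bases (GRCm38.p6) were at hand for 8 of the 10 genes, and 4 of these 8 held the element's core, TGACNNNGC, on either strand. Over all 26994 genes with such a window, 14.0% held it. The form TGACTCAGC, which is 1 fully specified case of the core and is shared with Maf recognition elements, was in no member's window and in 0.504% of genes. The stretches around the 4 matches are shown because they lie at a regulator and at 3 of the antioxidant genes described next. Capitals mark the core, and all are read in the direction of the gene.
Gclm, chr3:122245393-122245461, plus strand: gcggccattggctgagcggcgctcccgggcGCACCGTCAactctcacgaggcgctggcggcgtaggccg
Txnrd1, chr10:82859084-82859152, plus strand: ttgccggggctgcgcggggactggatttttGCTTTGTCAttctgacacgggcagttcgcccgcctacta
Srxn1, chr2:152105522-152105573, plus strand: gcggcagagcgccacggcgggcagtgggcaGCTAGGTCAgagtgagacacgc
Nfe2l2, chr2:75704865-75704913, minus strand: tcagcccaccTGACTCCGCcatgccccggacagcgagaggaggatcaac
In Gclm, Txnrd1 and Srxn1 the core lies on the opposite strand, where it reads TGACGGTGC, TGACAAAGC and TGACCTAGC. In Nfe2l2 it reads along the gene. Txnrd1 has 3 annotated windows, and 1 of them held the core. The windows of Bach1, Keap1, Slc7a11 and Nqo1 held no such letters, which says nothing about sites elsewhere. A match describes the sequence and is not evidence of binding.

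The regulators were all well above the floor on every array. Bach1 had log2 levels of 11.54 and 11.34 in the Spic-negative and Spic-positive monocytes and of 10.13 in macrophages. The monocyte arrays differed by -0.20, and macrophages stood 2.67-fold lower than Spic-negative monocytes (-1.42) and 2.32-fold lower than Spic-positive monocytes (-1.21). The other Bach1 probe set measured 10.21, 9.52 and 7.43, with macrophages again lowest and differences of -2.79 and -2.09 from the monocyte arrays. On both probe sets the mRNA of the repressor was lowest in the macrophage, in bulk RNA where fewer cells with a transcript and less of it per cell cannot be told apart.

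Nfe2l2 measured 11.48, 11.79 and 10.77 in the same order. It was lowest in macrophages too, at -0.71 against Spic-negative monocytes and, just past 2-fold, at -1.02 against Spic-positive monocytes. Its dimmer probe set read 8.61, 8.42 and 7.77, with a difference of -0.65 between macrophages and Spic-positive monocytes. The 2 probe sets disagreed in sign between the monocyte arrays, at 0.31 and -0.19. As measured, Nfe2l2 was thus lower in macrophages by less than Bach1 on the corresponding arrays. Against Spic-positive monocytes the brightest probe sets gave -1.02 and -1.21, where probe sets of 1 gene varied with a pooled SD of 0.85 log2. Whether the 2 genes differ in this step was not tested.

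Keap1, which encodes the adaptor that hands NRF2 to a CUL3 ubiquitin ligase, measured 8.37, 8.31 and 8.58, a span of 0.27 over the 3 arrays. Its dim second probe set was at 6.05, 4.72 and 5.15, so the Spic-positive level was under the floor and at least 2.04-fold below the Spic-negative one. The brighter probe set placed Keap1 within 2-fold in all 3 comparisons.

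**Figure D1:**
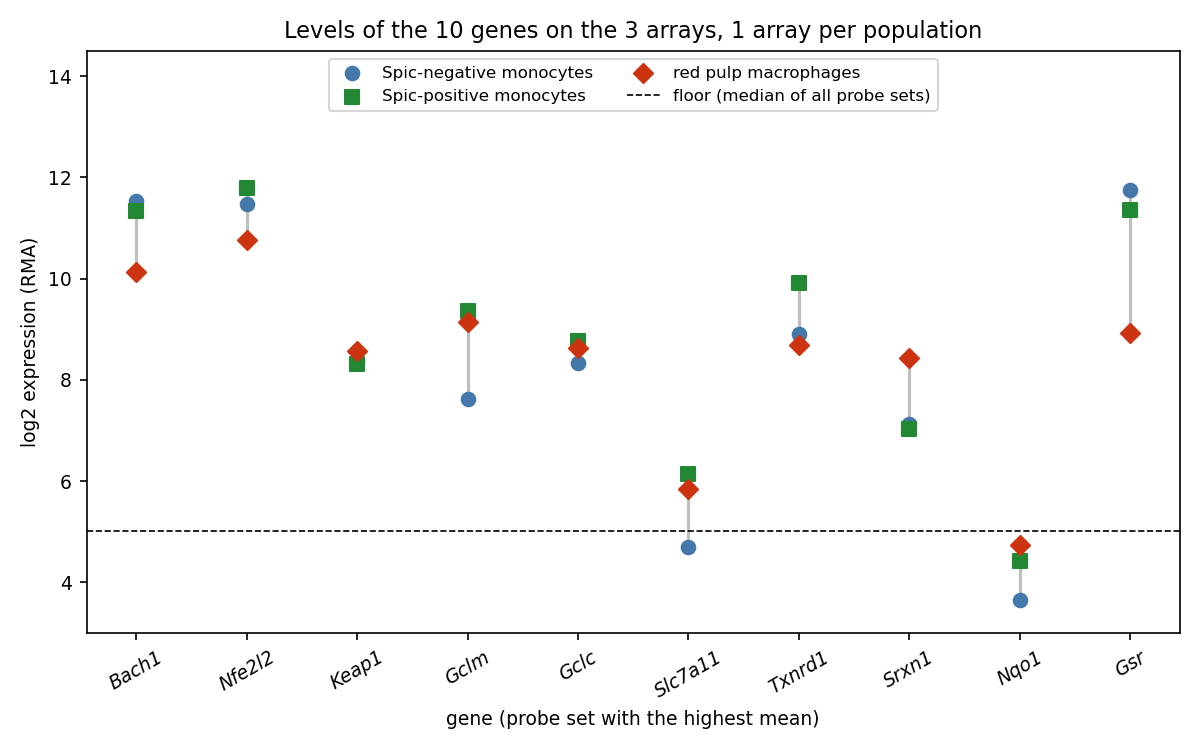
Log2 expression of the 10 genes (x axis) on the 3 arrays (y axis, RMA values of the probe set with the highest mean). Circles are Spic-negative monocytes, squares Spic-positive monocytes and diamonds red pulp macrophages, with 1 array each and no error bars, and the dashed line is the floor at 5.02. Gclm and Slc7a11 lie higher in both Spic-expressing populations, while Bach1 and Gsr lie lowest in macrophages.

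Glutathione is made from cysteine by a first enzyme with a catalytic and a modifier subunit, encoded by Gclc and Gclm, and cystine enters the cell through the exchanger xCT, encoded by Slc7a11. Gclm measured 7.62, 9.35 and 9.15. Relative to the Spic-negative array it was 3.32-fold higher in Spic-positive monocytes (1.73) and 2.89-fold higher in macrophages (1.53). By the brightest probe sets these were the largest differences upwards among the members in both comparisons, which share the Spic-negative array. Under the median of probe sets Txnrd1, at 2.66, exceeded Gclm, at 2.32, in macrophages. The second Gclm probe set measured 4.90, 6.16 and 8.02, below the floor on the Spic-negative array, with the Spic-positive array at least 2.19-fold and the macrophage array at least 7.99-fold higher. Both probe sets put the Spic-negative array lowest, but they disagreed on the step between the other 2 arrays, with macrophages at -0.20 on the brighter and at 1.86 on the dimmer.

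The catalytic subunit gene Gclc measured 8.33, 8.76 and 8.64. Spic-positive monocytes and macrophages exceeded the Spic-negative level by 0.44 and 0.31, and macrophages differed from Spic-positive cells by -0.13. The other probe set measured 8.09, 8.36 and 8.64. Gclc was lowest in Spic-negative monocytes on both probe sets, and neither reached 2-fold in any comparison, so the modifier and catalytic subunits differed in the size of their steps.

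Slc7a11 was dim. It measured 4.69, 6.15 and 5.84, so only the 2 Spic-expressing populations lay above the floor. The measured difference of Spic-positive from Spic-negative monocytes was 1.46, which as a bound against the floor is at least 2.18-fold. For macrophages the measured difference was 1.15, and the bound of at least 1.77-fold lies under 2-fold, so that count rests on the level below the floor. A second probe set lay below the floor on all 3 arrays, at 4.23, 4.37 and 3.80.

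TXNRD1, the cytosolic thioredoxin reductase, keeps thioredoxin reduced with electrons from NADPH, and sulfiredoxin, encoded by Srxn1, repairs overoxidized peroxiredoxins. Txnrd1 measured 8.90, 9.90 and 8.69 on its brightest probe set, highest in Spic-positive monocytes. The difference was 1.004 from Spic-negative monocytes, on the edge of the 2-fold threshold at 2.01-fold, and macrophages stood 2.31-fold lower than Spic-positive monocytes (-1.21). A second probe set did not share this order. It measured 4.50, 4.26 and 7.16, below the floor on both monocyte arrays and at least 4.40-fold higher in macrophages. The third was below the floor on all arrays, at 2.85, 3.24 and 3.88. Which transcripts the 3 probe sets read was not analysed here, and the peak in Spic-positive monocytes rests on 1 probe set. With the mean of the gene's probe sets macrophages differed from Spic-positive monocytes by 0.78, the opposite direction.

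Srxn1 measured 7.13 and 7.04 in the monocyte populations and 8.42 in macrophages. The monocyte arrays differed by -0.09, and macrophages were 2.46-fold higher than Spic-negative (1.30) and 2.62-fold higher than Spic-positive monocytes (1.39). The probe set for these values carries a suffix for probes that can bind transcripts of several genes. Of the others, 1 measured 5.57, 5.69 and 6.71, again highest in macrophages by 1.14 and 1.01, and 1 measured 6.36, 6.52 and 6.28, with no step. The last lay below the floor at 3.88, 3.70 and 4.35. Srxn1 therefore stood apart in macrophages on 2 of its 3 probe sets above the floor. Without probe sets of that suffix its level came from the flat one, and the macrophage differences were -0.076 and -0.24.

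NQO1, a quinone reductase widely used as a reporter of NRF2 activity, was not measurable here. Its only probe set read 3.65, 4.43 and 4.74, below the floor on every array, and no fold is given. It is the 1 member of 10 that did not pass the floor, so the counts below cover 9 genes. GSR, which regenerates glutathione from its oxidized form, showed the largest difference of the set. Gsr measured 11.74 and 11.35 on the monocyte arrays and 8.92 on the macrophage array. Macrophages stood 7.09-fold lower than Spic-negative monocytes (-2.83) and 5.41-fold lower than Spic-positive monocytes (-2.44), while the monocyte arrays differed by -0.39. The second probe set measured 11.35, 9.90 and 7.73, with differences of -3.61 and -2.17 for macrophages and of -1.45 between the monocyte arrays. Both probe sets ordered the arrays alike. They differed by whether the step between the monocytes passed 2-fold. On the Spic-negative and Spic-positive arrays the 3' minus 5' values were 0.48 and 2.25 for Gapdh and 0.74 and 0.57 for beta-actin. The part of RNA quality in this step was not tested.

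**Figure D2:**
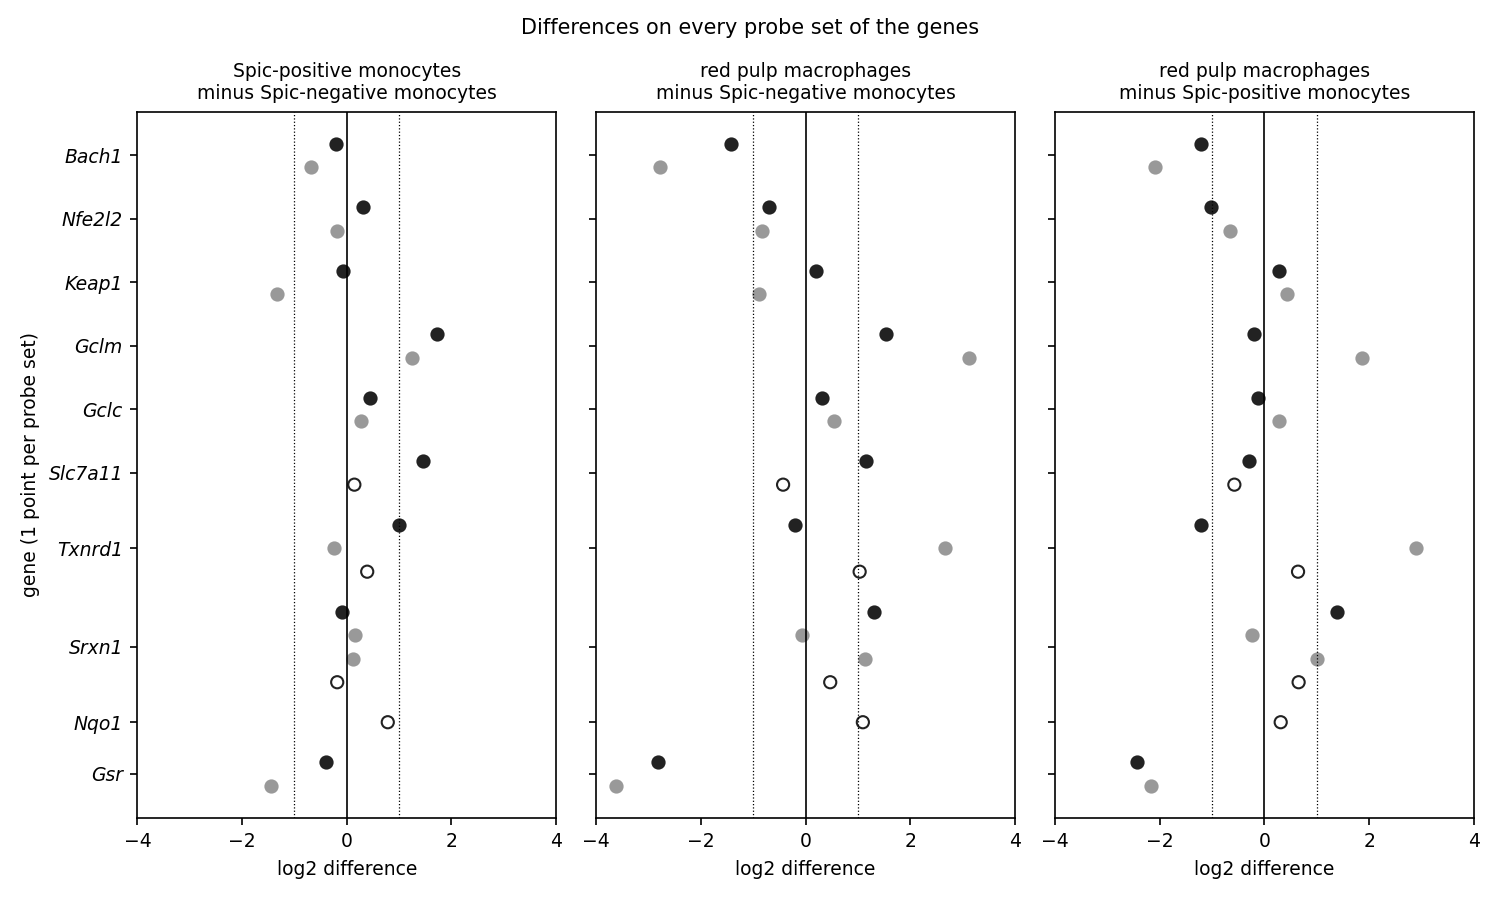
Log2 differences (x axis) between 2 arrays on each of the 22 probe sets of the 10 genes (y axis), in 3 panels for the 3 comparisons. Black points are the probe set that gives the gene level, grey points other probe sets above the floor on an array, open points probe sets below it on all arrays, and dotted lines mark 2-fold. The points of Bach1 and Gsr lie left of the 2-fold line in both macrophage panels, and those of Txnrd1 lie on opposite sides.

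Between the monocyte populations, Gclm, Slc7a11 and Txnrd1, 3 of the 9 measurable members, reached 2-fold upwards in Spic-positive cells, against 3.49% of 12375 genes. With the mean or the median of each gene's probe sets Gclm alone did, since Slc7a11 stood at 0.80 under both and Txnrd1 at 0.39 and -0.24. None was 2-fold lower, against 3.06%. The median difference of the 9 was 0.31 beside -0.06 for all genes. The counts for all genes tilt with the scaling, to 2.90% higher and 3.88% lower once array medians are made equal and to 3.61% and 2.11% after cyclic loess.

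Against Spic-negative monocytes, macrophages had 3 of the 9 genes at least 2-fold higher (Gclm, Slc7a11 and Srxn1), where 19.6% of all genes were. Bach1 and Gsr were 2-fold lower, where 11.3% of all genes were. The median of the 9 was 0.21 beside 0.03 for all genes. The members thus lay on both sides, with Gclm and Srxn1 at 1.53 and 1.30 and the 2 lower genes at -1.42 and -2.83. For Slc7a11 the bound against the floor is at least 1.77-fold, so without it 2 genes were measured as 2-fold higher.

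Against Spic-positive monocytes, Srxn1 alone of the 9 was 2-fold higher in macrophages, with 22.0% of all genes, and 4 were lower, Bach1, Nfe2l2, Txnrd1 and Gsr, with 11.6% of all genes. The median was -0.30 beside 0.10. With the mean of each gene's probe sets 0 were higher and 2 lower, Txnrd1 turned to 0.78 and the median turned to 0.078. The mean over probe sets above the floor gave the same counts and median, and the median over probe sets also gave 2 lower and that median. This comparison shares the macrophage array with the one before it and the Spic-positive array with the first, so the 3 are not independent.

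**Figure D3:**
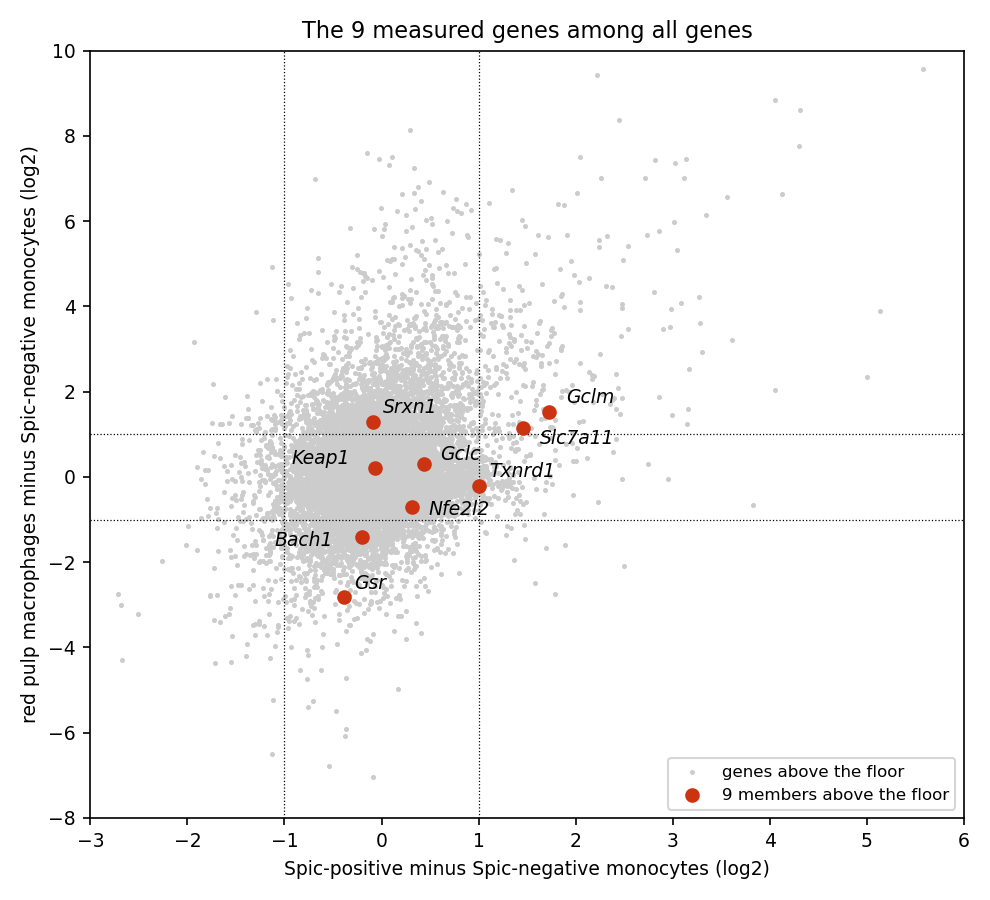
Each grey point is 1 of 12375 genes above the floor, by its log2 difference of Spic-positive from Spic-negative monocytes (x axis) and of macrophages from Spic-negative monocytes (y axis). The 9 members above the floor are in red, dotted lines mark 2-fold, and both axes share the Spic-negative array. Gclm and Slc7a11 lie to the right at 1.73 and 1.46, and Gsr lies low at -2.83.

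Other probe sets of the same genes give a check on probe set error, though they share the RNA. In all, 18 of the 22 probe sets were above the floor on at least 1 array, and 8 genes had more than 1 such probe set. Of the 9 further probe sets, 5 shared the sign of the gene's brightest one when the monocytes were compared, 6 when macrophages were set against the Spic-negative array and 5 against the Spic-positive array. Over all genes with several probe sets above the floor, probe sets of 1 gene varied with a pooled SD of 0.48, 0.78 and 0.85 log2 in the 3 comparisons. The differences of Keap1 and Gclc on their brightest probe sets were smaller than that SD in all 3, while those of Gclm from Spic-negative monocytes and of Gsr in macrophages were larger.

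The genes whose pattern over the 3 arrays lay nearest to each member were found among 12366 other genes, by the Euclidean distance of the 2 differences from Spic-negative monocytes. For Gsr these were Itga8, an integrin alpha chain (distance 0.031), and Cebpa, the myeloid transcription factor C/EBP alpha (0.064), which measured 9.87, 9.51 and 6.99. For Gclm they were the epsilon-tubulin gene Tube1 (0.089) and Gpr31b (0.15), and for Slc7a11 Susd2 (0.081) and Marveld1 (0.14). Patterns like these were sparse, with 6 genes within 0.25 log2 of Gclm, 10 of Slc7a11 and 15 of Gsr. For Bach1 the nearest were Spink2 and Skiv2l, the helicase of the Ski complex, at 0.0097 and 0.011, among 211 genes within 0.25. For Srxn1 they were the transporter gene Slc38a6 and 2210016F16Rik, at 0.0116 and 0.0145, among 299. For Txnrd1 they were Akp3 (0.0196) and Mapk8ip3 (0.0298), a scaffold of JNK signalling, among 100, and for Nfe2l2 Kirrel3 (0.0005) and Gpank1 (0.0195), among 429. A likeness over 3 arrays is a description only.

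The other genes of the pathway were taken as 9 lists of partners, enzymes and targets, with 2 further lists given in the closing section. Over the 11 lists 93 genes were above the floor, leaving out Spic, which belongs to the heme and iron list but was used for the sort. In Spic-positive against Spic-negative monocytes 7 of the 93 reached 2-fold upwards and 3 downwards (median -0.058), or 7.53% and 3.23% beside 3.49% and 3.06% of all genes. Against Spic-negative monocytes macrophages had 40 higher and 7 lower (median 0.63), or 43.0% and 7.53% beside 19.6% and 11.3%. Against Spic-positive monocytes they had 42 higher and 4 lower (median 0.88), or 45.2% and 4.30% beside 22.0% and 11.6%. The counts of single lists below are to be read against these shares of all genes. The lists, like the members, were chosen with earlier results of these data known.

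Among the partners of BACH1 and NRF2 the small MAF gene Maff stood out in size. It measured 6.69, 8.42 and 9.84, higher by 1.73 in Spic-positive monocytes and by 3.15 in macrophages than in Spic-negative monocytes. The other small MAF genes did not share this, with Mafg at 8.62, 8.77 and 8.95 and Mafk at 9.23, 9.27 and 8.97. Of the 12 partners and degradation genes above the floor, 1 was 2-fold higher and 1 lower between the monocyte arrays, beside 3.49% and 3.06% of all genes. The lower gene was Nfe2, a relative of NRF2 known from erythroid cells and platelets (-1.03). Its call was lost after a second quantile normalization and after cyclic loess. In macrophages 4 of the 12 were higher and 2 lower than in Spic-negative monocytes, where 19.6% and 11.3% of all genes were. The higher ones besides Maff were Sqstm1, which encodes p62, a protein that binds KEAP1 (2.44), Nfe2l1, which encodes NRF1 (1.14), and Btrc, a subunit of a second ubiquitin ligase for NRF2 (1.37). Btrc was below the floor on both monocyte arrays. Cul3 measured 10.17, 10.01 and 9.51.

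Of 8 glutathione synthesis and turnover genes, 5 were 2-fold higher in macrophages than in Spic-negative monocytes, with a median of 1.41, beside 19.6% of all genes. The glutathione synthetase gene Gss measured 7.60, 7.24 and 9.07. Slc3a2, the partner chain of xCT, measured 10.30, 10.70 and 12.10. In macrophages it stood higher by 1.80 than in Spic-negative and by 1.40 than in Spic-positive monocytes. Slc7a11 itself differed there by 1.15 and -0.30, the first from a level below the floor. The glutathione-degrading enzyme gene Chac1 measured 4.85, 4.98 and 7.36, below the floor on both monocyte arrays. Between the monocyte arrays 0 of the 8 were 2-fold higher, which became 2 after a second quantile normalization and after cyclic loess. Chac2 alone was lower (-1.15), beside 3.49% higher and 3.06% lower of all genes.

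Of 12 glutathione transferases above the floor on an array, 7 were higher and 1 lower in macrophages than in Spic-negative monocytes, with a median of 1.28, beside 19.6% and 11.3% of all genes. Some of the 7 were below the floor on the Spic-negative array, so the sizes of their differences rest on such levels. Gsta4, which conjugates lipid peroxidation products, measured 5.09, 4.56 and 9.62. Gstm5 measured 3.97, 4.11 and 8.74, below the floor on both monocyte arrays. Gstt1 was higher on both Spic-expressing arrays, at 4.64, 5.90 and 8.16. Its Spic-negative level was below the floor, and its 2-fold call between the monocyte arrays rests on that level. Gstm1 was lower in macrophages (-1.26). Glutathione peroxidases and glutaredoxins showed 1 of 7 higher in macrophages than in Spic-negative monocytes, beside 19.6% of all genes. This was Glrx5, which serves iron-sulfur cluster assembly (9.62, 9.12 and 11.59), and Gpx1 was level at 13.33, 13.22 and 13.28.

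Of 12 thioredoxins, peroxiredoxins and sestrins, 8 were 2-fold higher in macrophages than in Spic-negative monocytes (median 1.52), beside 19.6% of all genes. Between the monocyte arrays 0 of the 12 passed 2-fold, beside 3.49% higher and 3.06% lower of all genes. Txn1 measured 11.68, 12.32 and 13.22. The mitochondrial reductase gene Txnrd2 measured 7.78, 7.90 and 9.50, and Prdx2, a peroxiredoxin abundant in red blood cells, 10.52, 10.35 and 12.31. The NADPH supply genes, which feed both reductases, showed 1 of 8 higher than in Spic-negative monocytes, Idh2 (1.52), beside 19.6% of all genes. The pentose phosphate enzyme genes Pgd and Tkt measured 12.14, 11.92 and 11.66 and 12.83, 12.69 and 12.51. Of the superoxide dismutases and catalase, 0 of 5 passed 2-fold against Spic-negative monocytes, beside 19.6% higher and 11.3% lower of all genes. Against Spic-positive monocytes 3 were higher, beside 22.0% of all genes, Sod1 (1.03), Cat (1.40) and Ccs, the copper chaperone of SOD1 (1.05).

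Of 10 other NRF2 targets above the floor, 6 were higher and 2 lower in macrophages than in Spic-negative monocytes, beside 19.6% and 11.3% of all genes. Osgin1, an oxidative stress-induced growth inhibitor, measured 6.73, 6.87 and 10.47, and the microsomal epoxide hydrolase gene Ephx1 5.67, 6.85 and 11.25. The scavenger receptor gene Marco measured 5.24, 8.58 and 11.38 and with Ephx1 (1.18) was 1 of the 2 genes higher in Spic-positive monocytes, beside 3.49% of all genes. Abcc4 and Ugdh were the lower genes, at -1.07 and -1.06 against Spic-negative monocytes. For Abcc4 Spic-positive monocytes already stood at -0.99, and macrophages differed from them by -0.08. For Ugdh the same 2 differences were -0.35 and -0.71. Heme and iron targets shared with BACH1 numbered 5 without Spic. In macrophages 4 of the 5 stood at least 2-fold above Spic-negative monocytes, beside 19.6% of all genes. Fth1 did not, at 13.21, 13.55 and 13.44. Between the monocyte arrays Fth1, Blvrb and Slc48a1 differed by 0.35, 0.58 and -0.07. There 2 of the 5 passed 2-fold upwards, beside 3.49% of all genes. These were Hmox1, the enzyme that opens the heme ring (8.01, 9.96 and 13.08), and the iron exporter gene Slc40a1 (7.09, 8.91 and 13.50). Both were higher again in macrophages, by 3.12 and 4.59 over Spic-positive monocytes, on the arrays where Slc7a11 differed by -0.30 and Gclm by -0.20 on its brighter probe set and 1.86 on the other.

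**Figure D4:**
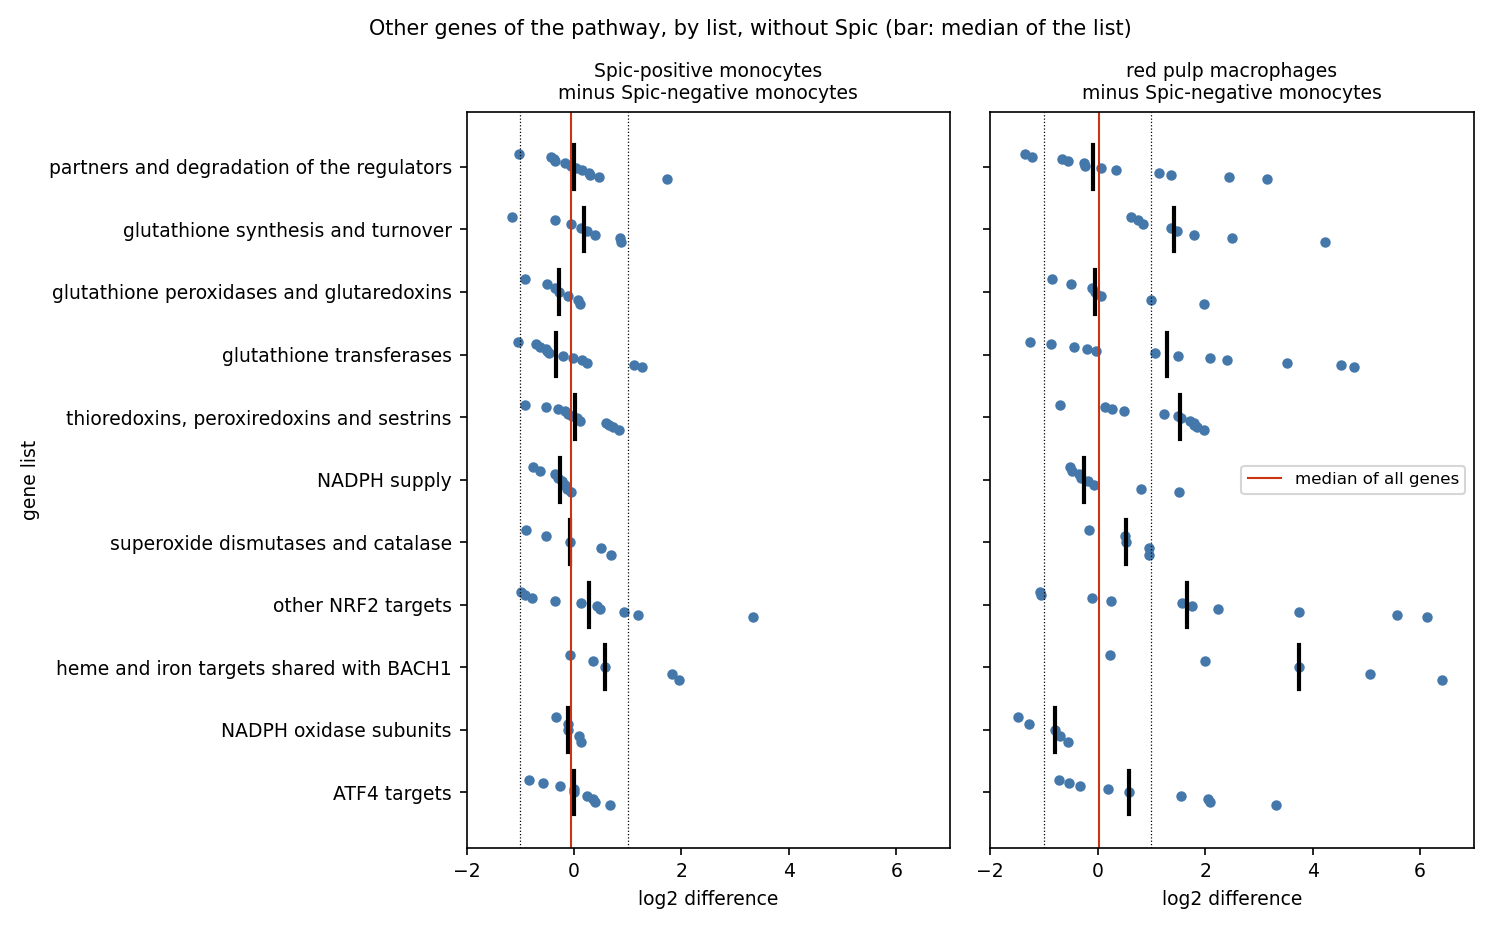
Log2 differences (x axis) of the other pathway genes above the floor, 1 point per gene, grouped by list (y axis), for Spic-positive against Spic-negative monocytes (left) and macrophages against Spic-negative monocytes (right). Black bars are list medians, the red line is the median of all genes and dotted lines mark 2-fold. Spic is left out. In the left panel every list median lies within 1 of 0, that of the heme and iron targets at 0.58. In the right panel the heme and iron targets and the other NRF2 targets have medians of 3.745 and 1.67. Those of glutathione synthesis, glutathione transferases and thioredoxins are 1.41, 1.28 and 1.52.

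The macrophage array on which these enzymes stood higher also carried the erythroid transcripts given above, among them Alas2 at 10.89 against 4.69 and 5.51. Prdx2, Cat and Glrx5 are expressed by erythroid cells as well, and the part of erythroid RNA in their levels was not tested. The B cell markers, at a median difference of 1.72 between the monocyte arrays, moved with Gclm, Slc7a11 and Txnrd1, and their part was not tested either.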

How the data were processed

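The authors deposited 1 log2 value for each probe set and array, obtained with RMA per the submitters' processing notes, from total RNA amplified over 2 cycles per the labels' protocols. The log2 scale was read from the values (1.82 to 14.50, none below 0). No array was replicated, so precision is limited by 1 array per group. After leaving out 64 control probe sets, 34945 had 1 symbol. Where a gene had several probe sets, the one brightest on average gave its level, and 12375 genes had an array above the floor of log2 5.02. Symbols were updated through gene identifiers with a GRCm38.p6 table, which also gave loci and promoter windows. Differences were counted at 2-fold with no test. Members, lists and the floor were chosen with earlier results of these data known. The genes named are the members, any gene of the lists and the 2 nearest patterns per member spanning 2-fold. The alternatives were other summaries of probe sets, 3 rescalings, 2 floors and leaving out probe sets ending in _x_at or _s_at. Python 3.11.15, numpy 2.4.6, pandas 2.3.3, matplotlib 3.10.9, R 4.3.3 and limma 3.58.1 (cyclic loess) were used, and the counting was tested on simulated data.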

Additional observations from a re-analysis of the deposited data

How the results depend on the processing

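No paired analysis was possible because each group has 1 array. Of 27 differences of members (9 genes, 3 comparisons), 16 kept their sign and 19 their side of 2-fold under every alternative that gave a value, which was all 9 except for Slc7a11, absent with the floor at the 75th percentile. Of the 9, 1 (the mean of probe sets above the floor on an array) was chosen after seeing the data, as was leaving Spic out of the lists. Gclm against Spic-negative monocytes, Bach1 and Gsr in macrophages kept both, with ranges of 1.49 to 1.91 and 1.46 to 2.32 for Gclm, -2.10 to -1.31 and -1.65 to -1.09 for Bach1, and -3.22 to -2.73 and -2.59 to -2.30 for Gsr. With the mean or the median of a gene's probe sets, 1 in place of 3 members reached 2-fold upwards between the monocyte arrays (Slc7a11 at 0.80, Txnrd1 at 0.39 and -0.24), and the cause was not tested. For macrophages against Spic-positive monocytes the members 2-fold lower were 2 in place of 4 under the mean, the median and the mean of probe sets above the floor. The members 2-fold higher were 0 in place of 1 under the mean, under the mean of probe sets above the floor and without probe sets ending in _x_at or _s_at. Txnrd1 reversed to -0.24 (median) in the first comparison and to 0.78, 2.90 and 0.84 (mean, median and mean above the floor) in the third. Against Spic-negative monocytes Txnrd1 in macrophages, at -0.21 on its brightest probe set, was past 2-fold upwards under the same 3 summaries, at 1.16, 2.66 and 1.23. Srxn1 reversed to -0.076 and -0.24 against the 2 monocyte arrays without probe sets ending in _x_at or _s_at. The median of the members for macrophages against Spic-positive monocytes was 0.078 with the mean, the median and the mean above the floor, against -0.30, and Gclm there turned from -0.20 to 0.83 under the same 3. Centring the arrays moved the median of all genes in that comparison from 0.10 to 0.23 and a second quantile normalization moved it to -0.03. Of 660 list counts under an alternative, 36 moved by over 1.5 times.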

Other observations

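The NADPH oxidase, the phagocyte's source of superoxide, and ATF4, a stress factor that shares Slc7a11 with NRF2 as a target, were followed as 2 further lists. The 5 NADPH oxidase genes above the floor were all within 2-fold between the monocyte arrays and all below their Spic-negative level in macrophages, 2 of them by 2-fold, beside 11.3% of all genes. Cybb, the catalytic subunit, measured 13.08, 13.21 and 11.80, and Ncf4 measured 11.57, 11.24 and 10.10. The median of the list was -0.79 for macrophages against Spic-negative monocytes, beside 0.03 for all genes. This is the direction of Gsr and Bach1 on the same arrays.

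Of 9 genes on the ATF4 list, 0 were 2-fold different between the monocyte arrays, beside 3.49% higher and 3.06% lower of all genes. Slc7a11 differed there by 1.46 from a level below the floor, or at least 2.18-fold. The part of ATF4 in that difference was not tested. In macrophages 4 of the 9 were higher than in Spic-negative monocytes, beside 19.6% of all genes, namely the asparagine synthetase gene Asns (3.33), Ddit3 (2.10), Phgdh, an enzyme of serine synthesis (2.05), and Ddit4 (1.55). Atf4 itself measured 11.44, 11.44 and 10.71.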
